A study of Mus musculus with 2669 samples.

Results

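The genes described here are the 10 core components of Hedgehog signalling that were sought by name in a table of 37310 mouse genes (SHH, PTCH1, SMO, GLI1, GLI2, GLI3, HHIP, GAS1, BOC and CDON in its spelling), and all 10 were found: the ligand Shh, the co-receptors Gas1, Boc and Cdon, the receptors Ptch1 and Hhip, the transducer Smo and the transcription factors Gli1, Gli2 and Gli3. They were read in single cells from the ganglionic eminences, transient swellings of the embryonic ventral forebrain in which most cortical interneurons are born. Cells came from embryos of CD1 mice, an outbred strain, with no transgene, mutation or treatment named. The caudal ganglionic eminence (CGE) and the dorsal and ventral parts of the medial eminence (dMGE and vMGE) were dissected at E12.5 and E14.5 (days of embryonic life). Each cell was captured on a Fluidigm C1 microfluidic chip for small cells and read as full-length polyadenylated RNA. The table held 2669 cells on 37 chips: 6 chips of CGE, 6 of dMGE and 7 of vMGE at E12.5, and 5, 8 and 5 at E14.5.

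Hedgehog signalling works by relieving a block. Without ligand, Ptch1 keeps Smo out of action, and Gli3, and to a lesser degree Gli2, is cut to a repressor of target genes. When Shh binds Ptch1 with the help of Gas1, Boc or Cdon, Smo acts at the primary cilium and full-length Gli2 becomes an activator. Gli1, Ptch1 and Hhip are themselves targets, so their transcripts are often used as a readout of the signal, and Ptch1 and Hhip feed back by binding ligand. In the ventral forebrain the pathway is known for setting up and maintaining Nkx2-1 in MGE progenitors.

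Of the cells, 2650 had at least 1000 detected genes and 50000 counts. Cells were put in classes by the share of marker genes at or above 20 CPM, the usual depth-scaled count. The 1286 dividing cells had at least 30% of 33 cell cycle markers, the 694 neuronal cells had under 20% of these and at least 25% of 23 neuronal markers, and 670 cells were in neither class. The classes are ranges of a score and not cell types: 104 dividing cells lay within 1 marker of the bound and 87 other cells just below it, and 1039 dividing cells also had at least 25% of the neuronal markers. No doublet caller was run. Median depth was 821082 counts in dividing and 804547 in neuronal cells, and median detected genes were 3856 and 2545.5. On 6 chips (CGE chip 186, dMGE chip 181 and vMGE chip 180 at E12.5, CGE chip 189-2 and dMGE chips 191 and 192 at E14.5) 30 to 59 cells were in neither class and 0 to 7 were dividing, fewer than the 10 used as the minimum for the fits below. No pair of cells held identical counts. Nkx2-1, which marks MGE, was higher in dividing MGE than CGE cells by 3.46 on the log2 scale at E12.5 (adjusted p = 0.00457, edgeR quasi-likelihood test) and by 2.80 at E14.5 (adjusted p = 0.0156), the direction the labels call for.

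2 quantities are given throughout. The level is the CPM of a gene in the counts summed over the cells of 1 class on 1 chip, for chips with at least 10 such cells. Detection is the percent of those cells with at least 1 count after each cell was thinned to 100000 counts, so that depth is equal. The chip is the replicate, since no animal or litter is named, so the p-values measure only the spread between chips, which may be technical. Levels were tested with edgeR and detection with limma on arcsine square roots, with Benjamini-Hochberg adjustment over all genes fitted, and a gene was called at an adjusted p under 0.05. In tests of MGE against CGE or with age, MGE is the mean of the fitted dMGE and vMGE values. On the log2 scale a part of MGE near 0 can make that difference larger than the one between mean CPM. Reads carry no molecular identifiers, so a high CPM in a cell can come from few molecules.

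The members were low in abundance, and their order was led by Gli3 and Smo. Per kilobase of exon in dividing cells (mean ± SD over 31 chips), Gli3 stood at 7.44 ± 7.39 CPM, Smo at 6.46 ± 5.72 and Ptch1 at 3.41 ± 2.82. Gas1 followed at 2.37 ± 5.12 and Cdon at 1.13 ± 1.74. Gli2 at 0.793 ± 1.40, Boc at 0.535 ± 1.14 and Hhip at 0.382 ± 1.16 came next, and Shh at 0.154 ± 0.394 and Gli1 at 0.107 ± 0.357 were lowest. Each neighbour in that order lay within an SD of the next. At 10 CPM or more, Gli3 was present in 453 of the 2650 cells, Ptch1 in 261 and Smo in 242. Gli2 was present in 85 cells, Cdon in 78, Gas1 in 72, Boc in 35, Hhip in 34, Shh in 33 and Gli1 in 8. Many cells held less: Gli3 had counts in 720 cells, Ptch1 in 486 and Shh in 103. Among dividing cells at or above 10 CPM the median level ran from 35.6 CPM for Shh to 117 for Ptch1.

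**Figure D1:**
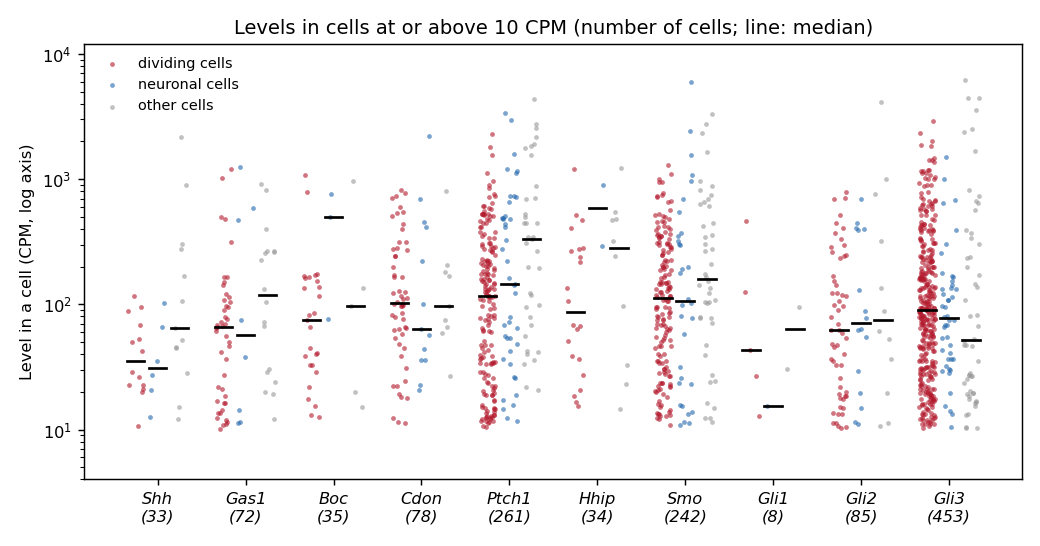
Level of each member in every cell at or above 10 CPM (log axis), coloured by class, with the number of such cells below each name and a line at the median. Gli3, Ptch1 and Smo fill many cells, 453, 261 and 242, while Gli1 is seen in 8.

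Most members were detected more often in dividing than in neuronal cells. Detection was lower in neuronal than in dividing cells of the same 24 chips for 8 of the 10 members, beside 37.4% of all genes tested, and higher for none, beside 1.35%. The share of all genes called lower is large, and the median number of detected genes also differed between the classes, 2545.5 in neuronal and 3856 in dividing cells; its part in these calls was not tested. The members with the lowest adjusted p were Gli3, detected in 24.7% ± 12 (SD, n = 24 chips) of dividing and 8.44% ± 12.4 of neuronal cells (limma adjusted p = 7.36e-08), and Smo, at 14.3% ± 8.14 and 6.54% ± 5.76 (limma adjusted p = 0.000418). Gli3 was detected in more of the dividing cells on 22 of 24 chips and Smo on 19.

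All 3 co-receptors were detected less often in neuronal cells in the mean of the 6 groups' class effects. Boc, Cdon and Gas1 are cell surface proteins that present ligand to Ptch1. Boc went from 2.89% ± 3.62 of dividing to 0.882% ± 1.84 of neuronal cells (limma adjusted p = 0.00861), Cdon from 4.99% ± 5.50 to 1.74% ± 2.87 (limma adjusted p = 0.00907) and Gas1 from 3.73% ± 4.85 to 1.40% ± 3.73 (limma adjusted p = 0.00918). These calls, and those of Gli3 and Smo, were kept whichever of the 24 chips was left out. With chips numbered 160 and above alone, Smo (limma adjusted p = 0.142), Cdon (0.297) and Gas1 (0.146) were no longer called, while Gli3 (0.0138) and Boc (0.0150) were. Group by group, the arcsine difference was above 0 for Boc in dMGE at E14.5 (0.0888) and for Cdon in CGE at E12.5 (0.0832), neither of them called. The other group effects of the 3 co-receptors were below 0.

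The remaining calls rested on fewer cells. Hhip, a membrane protein that traps ligand, was detected in 1.58% ± 2.65 of dividing and 0.139% ± 0.680 of neuronal cells (limma adjusted p = 0.0228), and the call was lost without dMGE E12.5 chip 176 (0.0537) or vMGE E12.5 chip 174 (0.0622). Gli2 was at 3.73% ± 4.88 and 1.57% ± 3.33 (limma adjusted p = 0.0401), and its call was lost without any of 9 chips (adjusted p 0.0514 to 0.115, the highest without CGE E12.5 chip 182). Ptch1 was at 12.01% ± 7.50 and 7.82% ± 7.30 (limma adjusted p = 0.0495), lost without any of 14 chips (0.0505 to 0.160, the highest without vMGE E12.5 chip 196). Hhip stayed called with chips numbered 160 and above alone (limma adjusted p = 0.0427). Gli2 and Ptch1 were not called there (0.344 and 0.369), nor where at least 2 counts (0.143 and 0.147) or 10 CPM (0.168 and 0.0946) were required. Shh, at 1.10% ± 2.08 and 1.85% ± 3.20, and Gli1, at 0.298% in both, were not called.

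**Figure D2:**
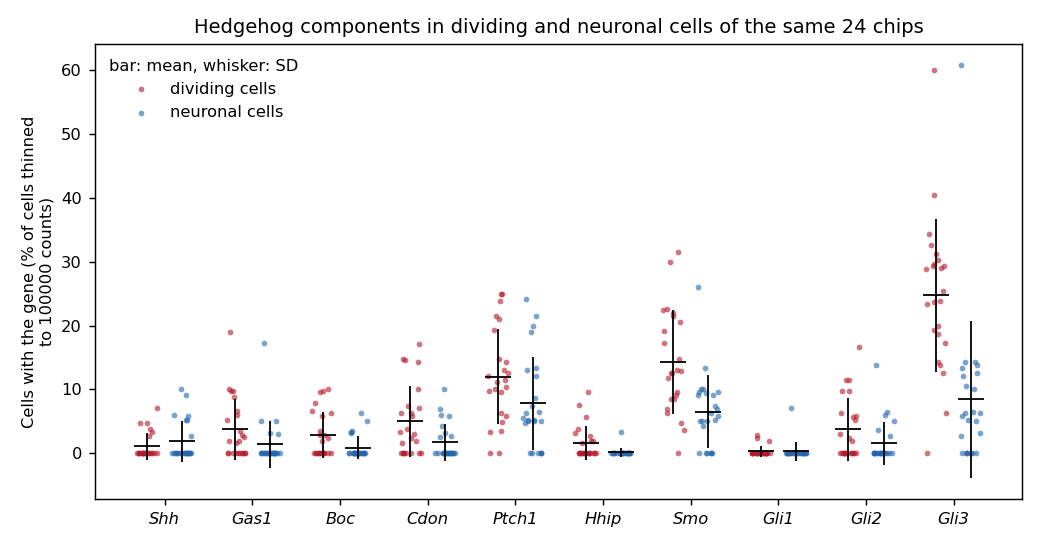
Percent of cells with each member, after thinning to 100000 counts, in dividing (red) and neuronal (blue) cells of the same 24 chips, with 1 point per chip, a bar at the mean and a whisker of 1 SD. Gli3 has a mean of 24.7% in dividing and 8.44% in neuronal cells and Smo 14.3% and 6.54%, and the lone neuronal point of Gli3 near 60% is dMGE E14.5 chip 90.

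Levels gave fewer calls than detection. In the mean of the 6 groups' class effects, Gli3 was the single member called, lower in neuronal cells by 3.66 ± 1.12 (SE) on the log2 scale (edgeR adjusted p = 0.0432), where 6.5% of all genes were called lower and the median gene stood at -0.69. On the 24 chips Gli3 had a mean of 56.6 ± 64 CPM in dividing and 9.69 ± 14.4 in neuronal cells and was higher in dividing cells on 19. The call did not hold without any of 16 of the 24 chips, where the adjusted p was 0.0504 to 0.162, highest without vMGE E12.5 chip 174, nor with DESeq2 size factors in edgeR (0.0598) or chips numbered 160 and above alone (0.279). Cdon (log2 difference -4.57, edgeR adjusted p = 0.0532), Gas1 (-4.38, 0.106), Boc (-3.75, 0.206) and Smo (-2.54, 0.316) were not called. In a fit with 1 class effect over all groups, which was added because Shh, Hhip, Gli1 and Gli2 could not be fitted group by group, Hhip (-5.06, edgeR adjusted p = 0.00451), Gli3 (-3.76, 0.0120), Gas1 (-4.25, 0.0203) and Cdon (-4.60, 0.0278) were called lower, beside 10.2% of genes.

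Ptch1 did not follow the others in level. Its mean was 22.7 ± 21.2 CPM in dividing and 50.8 ± 93.9 in neuronal cells of the 24 chips, and it was higher in neuronal cells on 14 of them (log2 difference -0.22, edgeR adjusted p = 1). The highest neuronal sums were 369 CPM on dMGE E12.5 chip 195 and 299 on vMGE E14.5 chip 98, where it was detected in 5.26% and 4.76% of the cells. For Boc, too, the mean CPM (2.84 in dividing, 3.25 in neuronal cells) and the fitted difference (-3.75) had opposite signs.

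The ligand itself was rare and was found mostly in MGE at the earlier age. Shh reached 10 CPM in 17 of 482 vMGE and 9 of 444 dMGE cells at E12.5, in 4 of 368 and 1 of 502 at E14.5, and in 2 of 467 and 0 of 387 CGE cells. No count of Shh was seen in the 387 CGE cells of E14.5, which allows a share of up to 0.775% by counting error. Of the 33 Shh cells, 14 were dividing, 6 neuronal and 13 in neither class, and the highest, at 2159 CPM, was a vMGE cell of E12.5 in neither class.

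In dividing cells the detection of Shh fell with age in MGE, a call that several alternatives ended. At E12.5 the 5 dMGE chips had 0%, 1.30%, 2.63%, 3.28% and 4.76% of cells with Shh, and the 6 vMGE chips ran from 0% through a median of 2.94% to 10.7%. At E14.5 a single MGE chip of 11, vMGE chip 91, had any, at 3.85%. The mean went from 3.24% ± 3.55 (n = 11 chips) to 0.350% ± 1.16 (n = 11), with a limma adjusted p of 0.0343, where 8.68% of all genes were called lower in this contrast. The groups overlapped, since 4 of the 11 chips of E12.5 were also at 0%. The call was lost without any of 9 chips (adjusted p 0.0511 to 0.0820, highest without vMGE E12.5 chip 183), and the level did not pass (log2 difference -4.06, edgeR adjusted p = 0.132). Most E14.5 MGE chips carry numbers under 160 and all E12.5 chips are numbered 160 or above. With the latter alone, the 2 remaining E14.5 MGE chips, 193 and 194, held no Shh and the limma adjusted p was 0.994. The call was also lost where at least 2 counts (0.0728) or 10 CPM (0.152) were required of a cell.

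Of the 33 Shh cells 31 came from MGE, and their markers are set beside those of the 1765 other MGE cells. Nkx2-1 reached 10 CPM in 70.97% of the Shh cells and 62.5% of the others, and Lhx6, a factor of MGE-derived interneurons, in 70.97% and 58.6%. Lhx8, a LIM homeobox gene of ventral MGE lineages, was present in 51.6% and 27.3%. Other markers were also more frequent over all 33 Shh cells than in the other MGE cells, among them Dlx5 (84.8% and 64.7%), Gad2 (66.7% and 57.6%) and Mki67 (60.6% and 51.9%). Tubb3 (72.7% and 75.9%), Nkx2-2 and Sim1 (both 0% and 0.113%) were not. All these shares pool cells over chips and carry no test. Most Shh cells came from E12.5, and the part of group mix in these shares was not tested.

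Gas1, a membrane-anchored co-receptor, was detected more often in CGE than in MGE at both ages. In dividing cells of E12.5 the 5 CGE chips stood at 4.34, 9.19, 12, 13.8 and 53.3 CPM. The 5 dMGE chips were at 0, 0.0471, 0.677, 0.824 and 1.56 CPM, and the 6 vMGE chips ran from 0 through a median of 0.0923 to 1.21. Every CGE chip was therefore above every MGE chip, a separation that 0.074% of all genes showed in this direction. Detection was 11.7% ± 4.76 of CGE (n = 5) and 1.36% ± 1.64 of MGE dividing cells (n = 11), a difference that was called (limma adjusted p = 0.0181), as were 0.0538% of genes in this direction. It was lost without CGE E12.5 chip 172, 175, 179 or 182 or dMGE E12.5 chip 176, with adjusted p of 0.0540 to 0.196. With chips numbered 160 and above alone the limma adjusted p was 0.0558. The level was not called by edgeR (log2 difference -5.52 ± 1.64 SE, adjusted p = 0.346), nor was that of any other member in this contrast, where 0.0202% of genes were called. DESeq2 called the level of Gas1 here (-5.70, adjusted p = 0.00925).

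At E14.5 the Gas1 difference was smaller and the groups overlapped. All CGE chips are numbered 160 or above, and most MGE chips of this age under 160. Median counts per cell were 928131 in CGE, 509250 in dMGE and 532602 in vMGE. Region and number series can therefore hardly be told apart in any comparison of MGE with CGE at E14.5. CGE chips were at 2.18, 2.92, 3.44 and 50.3 CPM, dMGE chips ran from 0 through a median of 0 to 5.05, and vMGE chips stood at 0, 0.0706, 1.36, 4.41 and 50.3. Detection was 7.86% ± 3.37 in CGE (n = 4) and 1.52% ± 2.13 in MGE (n = 11; limma adjusted p = 0.0423, beside 3.87% of genes called lower in MGE). This call was lost without any of 8 chips (adjusted p 0.0576 to 0.176, highest without CGE E14.5 chip 161). With chips numbered 160 and above alone, which leaves 1 dMGE and 1 vMGE chip, the limma adjusted p was 0.955. The call was also lost where at least 2 counts were required (0.0752) and with at least 5 in place of 10 cells per chip (0.216).

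Neuronal cells showed the same order for Gas1 without a call by edgeR or limma, although the share at or above 10 CPM passed at E12.5 (limma adjusted p = 0.00597). At E12.5 the 4 CGE chips had 0.290, 0.670, 3.79 and 48.3 CPM, while 6 of the 7 MGE chips were at 0 and the other at 0.0232, so that the regions did not overlap, beside 0.604% of genes. At E14.5 all 10 MGE chips were at 0. In cells of any class Gas1 reached 10 CPM in 43 of 467 CGE cells at E12.5, against 6 of 444 in dMGE and 3 of 482 in vMGE. Summed markers of pericytes and fibroblasts, a possible other source of Gas1, ranged from 0 to 119 CPM over CGE, 0.135 to 82.6 over dMGE and 0 to 274 over vMGE chips in dividing cells of E12.5, with Dcn at 0 in all 3 groups and Lum at 0 in dMGE and vMGE; their part in the result was not tested.

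The RefSeq sequence around the start of Gas1 is shown because the chips of Gas1 did not overlap between CGE and MGE at E12.5. It covers 250 bases before and 50 after the annotated start, at chr13:60177486-60177785 (minus strand, GRCm38.p6), and reads 5′ to 3′ as follows, with no capitals since neither motif searched was found.
Gas1: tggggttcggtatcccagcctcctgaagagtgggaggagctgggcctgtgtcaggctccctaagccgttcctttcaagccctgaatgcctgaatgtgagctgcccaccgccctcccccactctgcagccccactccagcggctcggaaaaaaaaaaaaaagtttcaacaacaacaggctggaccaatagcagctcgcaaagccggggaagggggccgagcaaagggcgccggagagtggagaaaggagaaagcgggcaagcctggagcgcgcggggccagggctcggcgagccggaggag
It is 62.3% G and C and holds 17 CpG, against medians of 52.7% and 7 over 32851 mouse promoters.

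Boc was near absent from vMGE. In dividing cells of E12.5 the 6 vMGE chips ran from 0 through a median of 0.00748 to 0.0505 CPM, and the 5 dMGE chips stood at 0.497, 0.863, 3.24, 4.85 and 11.8. The ranges did not overlap, a pattern that 0.108% of genes showed in this direction, but no gene was called between vMGE and dMGE at this age by edgeR (733 of 14866 had an unadjusted p under 0.05, and DESeq2 called 225). Boc had an unadjusted p of 0.000689 and an adjusted p of 0.633 by edgeR, and it was among the genes that DESeq2 called (log2 difference -8.47, adjusted p = 2.13e-05). In all classes, 0 of 482 vMGE cells of E12.5 reached 10 CPM of Boc, with counts in 4 of them, against 12 of 444 dMGE and 13 of 467 CGE cells.

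At E14.5 Boc was the single member whose level edgeR called between regions, a call that rests on few cells. CGE chips stood at 0, 1.83, 7.97 and 25.2 CPM. The 6 dMGE chips ran from 0.0498 through a median of 0.0747 to 2.52 CPM, and 4 of the 5 vMGE chips were at 0 with the other at 0.114. MGE was lower by 6.23 ± 1.58 (SE) on the log2 scale (edgeR adjusted p = 0.0438), and 0.498% of genes were called lower in this contrast. Mean CPM was 0.272 in MGE and 8.75 in CGE. The groups overlapped because CGE chip 161 had none. Boc reached 10 CPM in 4 of 128 dividing CGE cells of E14.5, 1 of 190 in dMGE and 0 of 194 in vMGE. The call was lost without any of 16 of the 31 chips (adjusted p 0.0503 to 0.142, highest without CGE E14.5 chip 162, where the log2 difference was -4.80), under a stricter class rule (-4.10, adjusted p = 0.283) and with chips numbered 160 and above alone (-3.94, adjusted p = 0.721). Detection was 4.68% ± 4.28 in CGE and 0.573% ± 1.28 in MGE (limma adjusted p = 0.0982), which passed where at least 2 counts (0.0404) or 10 CPM (0.0359) were required.

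Cdon, the co-receptor most similar to Boc in its structure, was called lower in MGE at E14.5 and was not called at E12.5. In dividing CGE cells detection was 0%, 1.79%, 3.03%, 7.14% and 9.68% on the chips of E12.5 and 10.0%, 14.6%, 14.7% and 17.1% on those of E14.5, so the ages did not overlap, beside 0.652% of genes with such a rise, but the difference was not called (limma adjusted p = 0.887, beside 0.0269% of genes called). At E14.5 the CGE mean of 14.1% ± 2.98 (n = 4) exceeded the MGE mean of 2.34% ± 2.66 (n = 11), and the difference was called (limma adjusted p = 0.0100). The highest MGE chips of that age reached 6.25%, below every CGE chip, a separation that 0.895% of genes showed. At E12.5 the means were 4.33% ± 3.98 in CGE and 4.26% ± 4.21 in MGE. The change of the region difference with age had an unadjusted p of 0.00443 and a limma adjusted p of 0.267. The E14.5 call was lost without CGE E14.5 chip 160 (adjusted p = 0.0549) or 161 (0.0535), with at least 5 in place of 10 cells per chip (0.103), and with chips numbered 160 and above alone (0.434).

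**Figure D3:**
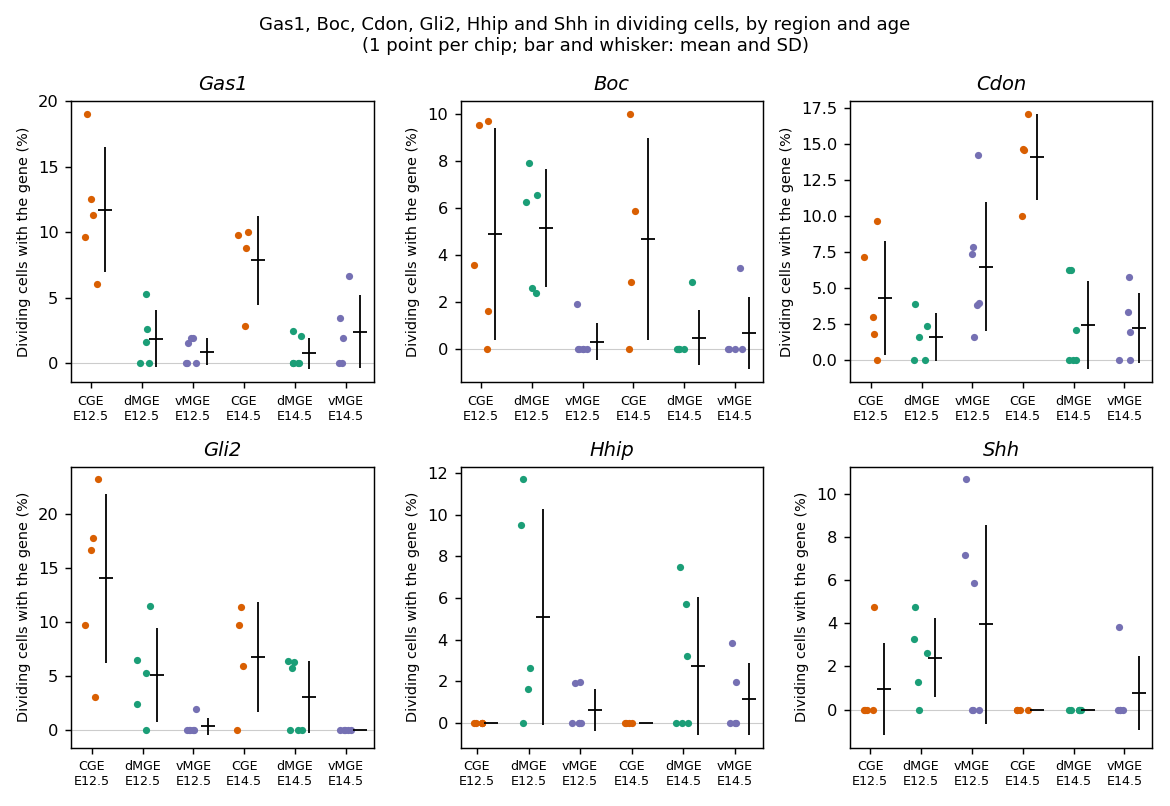
Percent of dividing cells with Gas1, Boc, Cdon, Gli2, Hhip and Shh by region and age, with 1 point per chip, a bar at the mean and a whisker of 1 SD. Gas1 is highest in CGE at E12.5, Gli2 is at 0% on all but 1 vMGE chip, Boc is at 0% on all but 1 vMGE chip of each age, Hhip is at 0% on every CGE chip, and Shh is found on 1 of 11 MGE chips at E14.5.

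Of the receptors, Ptch1 was found in every region and age. In dividing cells of E12.5 its level was 24.5 ± 12.9 CPM in CGE (n = 5), 28.7 ± 11.5 in dMGE (n = 5) and 55.4 ± 28.9 in vMGE (n = 6), and at E14.5 it was 16.2 ± 12.49 (n = 4), 14.6 ± 13.7 (n = 6) and 14.97 ± 13.9 (n = 5). The 6 vMGE chips of E12.5 ran from 11.5 through a median of 53.8 to 99.7 CPM and overlapped the other groups. Detection in MGE was 18.0% ± 7.49 at E12.5 and 8.91% ± 6.62 at E14.5, which was not called (limma adjusted p = 0.0935) and passed without vMGE E14.5 chip 91 (0.0462). Its level with age in MGE was called by limma on log2(mean CPM + 1) (-2.27, adjusted p = 0.0280) and not by edgeR or DESeq2. No difference of Ptch1 between regions was called at either age by edgeR, DESeq2 or limma.

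Hhip was found mostly in MGE. It was at 0 on all 5 dividing CGE samples of E12.5 and all 4 of E14.5. The 5 dMGE chips of E12.5 stood at 0, 0.185, 0.611, 6.51 and 8.61 CPM and the 6 vMGE chips ran from 0 through a median of 0.0495 to 5.89. At E14.5 the dMGE chips ran from 0 through a median of 0.962 to 56.6 CPM and the vMGE chips stood at 0, 0, 0.0495, 4.43 and 4.80. Against a floor of 3 counts over the CGE group, the MGE mean was 163-fold higher at E12.5 and 263-fold higher at E14.5. That floor takes reads and not cells as the unit, so these folds are not lower bounds. Among dividing cells, Hhip reached 10 CPM in 12 of dMGE and 2 of vMGE at E12.5 and in 6 and 2 at E14.5. In CGE it did so in 0 of 236 and 0 of 128. The fold of E14.5 falls to 97.3 without dMGE chip 90, the chip at 56.6 CPM, and to 163 without CGE chip 160. By edgeR the difference was not called (adjusted p = 0.425 and 0.158), and 3 of 11 and 5 of 11 MGE chips were also at 0. DESeq2 called it at both ages (log2 difference 22.7 and 27.0, adjusted p = 3.74e-19 and 8.09e-24). With CGE at 0 on every chip, estimates of that size are not usable, nor are their p-values. In all classes Hhip reached 10 CPM in 18 of 444 dMGE and 4 of 482 vMGE cells at E12.5 and in 9 of 502 and 2 of 368 at E14.5. It did so in 1 of 467 CGE cells of E12.5 and 0 of 387 of E14.5, which allows up to 0.775%.

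The RefSeq window of Hhip is shown because Hhip, a known Hedgehog target, was at 0 on the CGE samples above. It lies at chr8:80057959-80058258 (minus strand, GRCm38.p6).
Hhip: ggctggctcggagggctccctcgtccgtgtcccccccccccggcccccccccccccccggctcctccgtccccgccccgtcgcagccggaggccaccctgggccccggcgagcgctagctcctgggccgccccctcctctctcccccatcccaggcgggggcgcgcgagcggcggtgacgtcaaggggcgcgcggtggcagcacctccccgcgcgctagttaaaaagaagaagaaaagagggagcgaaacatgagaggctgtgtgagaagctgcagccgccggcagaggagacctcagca
It holds 30 CpG at 73.7% G and C, and neither motif searched was found in it.

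Smo and Gli3 were spread over all regions and ages without a call by edgeR, DESeq2 or limma. Smo, the membrane protein that passes the signal on, had 21.6 ± 13.8 CPM in CGE, 23.8 ± 23.8 in dMGE and 22.1 ± 19.4 in vMGE dividing cells at E12.5. At E14.5 the values were 18.8 ± 23.1, 20.9 ± 19.7 and 39.2 ± 32.3. Detection lay between 12.8% and 16% in all 6 groups. The fitted differences in dividing cells between MGE and CGE were 0.01 at E12.5 and 0.83 at E14.5 on the log2 scale, which misses the threshold and does not show that the regions are alike.

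Gli3, the main Hedgehog repressor, was the most widely detected member. In dividing cells it was found in 38.2% ± 8.65 of CGE (n = 5), 25.03% ± 13 of dMGE (n = 5) and 25.7% ± 15.6 of vMGE cells (n = 6) at E12.5. At E14.5 it was found in 28.2% ± 5.97 (n = 4), 22.9% ± 18.4 (n = 6) and 21.7% ± 6.13 (n = 5). The CGE chips of E12.5 ran from 16.9 to 157 CPM and those of vMGE from 0.101 to 64.8, so the regions overlapped, and the fitted MGE minus CGE differences were -1.01 and -0.65 on the log2 scale at the 2 ages.

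A single chip stood apart for Gli3. On dMGE E14.5 chip 90, 60% of dividing and 60.9% of neuronal cells had Gli3, and the next highest chips of its group had 19.4% and 6.25%. Over all classes 49 of its 75 cells reached 10 CPM (65.3%, exact 95% binomial interval 53.5% to 76%, counting error only). The median of these was 32.0 CPM, and 9 of the 75 cells exceeded 100 CPM. On the other dMGE chips of that age 0 to 7 cells reached 10 CPM. Without chip 90, Gli3 stayed lower in neuronal cells in level (log2 difference -3.83, edgeR adjusted p = 0.0444) and in detection (limma adjusted p = 5.62e-08).

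**Figure D4:**
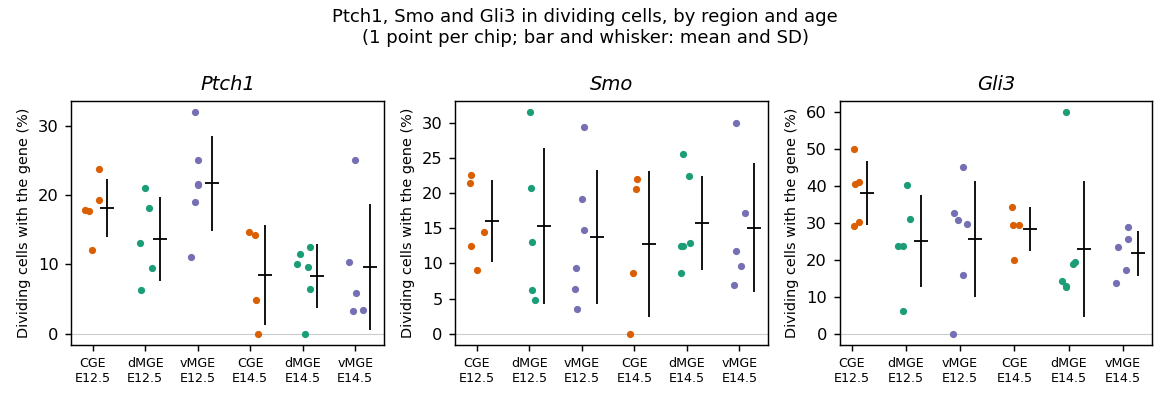
Percent of dividing cells with Ptch1, Smo and Gli3 by region and age, with 1 point per chip, a bar at the mean and a whisker of 1 SD. The regions overlap for all 3 genes, and the dMGE E14.5 point at 60% of cells for Gli3 is chip 90.

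Gli2, the main activator, was present in CGE and dMGE and almost absent from vMGE, although by edgeR and limma no difference between regions was called. In dividing cells of E12.5 the CGE chips stood at 0.317, 8.09, 13.7, 16.9 and 27.0 CPM and the dMGE chips at 0, 0.878, 3.92, 5.58 and 20.8. Of the 6 vMGE chips 4 were at 0, and the others had 0.0389 and 0.0821. At E14.5 the CGE chips had 1.37, 2.16, 6.20 and 16.8 CPM, the dMGE chips ran from 0 through a median of 0.264 to 37.1, and all 5 vMGE chips were at 0. CGE and dMGE overlapped at both ages, and vMGE lay below every CGE chip at both, as 0.296% of genes did at E12.5 and 1.48% at E14.5.

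Counted by cell, Gli2 reached 10 CPM in 44 of 467 CGE, 14 of 444 dMGE and 1 of 482 vMGE cells at E12.5. At E14.5 it did so in 20 of 387, 6 of 502 and 0 of 368, the last of which allows up to 0.815%. Against a floor of 3 counts over the vMGE group of E14.5, the mean level in dividing cells was 261-fold higher in CGE and 257-fold higher in dMGE. The floor takes reads and not cells as the unit, so these folds are not lower bounds. At 10 CPM or more, Gli2 was in 10 of 128 dividing CGE, 3 of 190 dMGE and 0 of 194 vMGE cells of E14.5. The folds also rest on single chips: that of CGE falls to 128 without chip 160, at 16.8 CPM, and that of dMGE to 16.6 without chip 97, at 37.1 CPM. By edgeR the difference between vMGE and dMGE had an unadjusted p of 0.00112 at E12.5 and 0.000387 at E14.5, with adjusted p of 0.633 and 0.490. By edgeR no gene was called in either contrast. At E14.5, 1193 of 14866 genes had an unadjusted p under 0.05, and DESeq2 called 421. DESeq2 called Gli2 lower in vMGE than in dMGE at E12.5 (log2 difference -8.04, adjusted p = 0.000175) and at E14.5 (-9.87, adjusted p = 6.52e-06, with all vMGE chips at 0). MGE against CGE gave a log2 difference of -5.07 at E12.5 (edgeR adjusted p = 0.364, DESeq2 0.0178) and -5.30 at E14.5 (edgeR 0.0919, DESeq2 0.0580), and the latter passed by edgeR without dMGE E14.5 chip 97 (0.0226). Mean CPM was 2.84 in MGE and 13.2 in CGE at E12.5, and 3.57 and 6.63 at E14.5. The fitted differences are larger since they average the log2 values of dMGE and of vMGE, which was at or near 0. Detection at E12.5 was 14.1% ± 7.83 in CGE and 2.50% ± 3.77 in MGE (limma adjusted p = 0.0637), which passed without any of 4 chips, CGE E12.5 chip 187 (0.0173), CGE E14.5 chip 190-2 (0.0240), dMGE E12.5 chip 184 (0.0347) and vMGE E12.5 chip 174 (0.0431). It also passed with at least 5 cells per chip (0.0419) and with no thinning (0.00631).

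The RefSeq window of Gli2 is shown because of the 7 member windows searched it was the only one with a match to the core of the Gli binding motif. It lies at chr1:119053570-119053869 (minus strand, GRCm38.p6), and the capitals mark the match, ACCACCC on the opposite strand, whose first base is base 46 of the window.
Gli2: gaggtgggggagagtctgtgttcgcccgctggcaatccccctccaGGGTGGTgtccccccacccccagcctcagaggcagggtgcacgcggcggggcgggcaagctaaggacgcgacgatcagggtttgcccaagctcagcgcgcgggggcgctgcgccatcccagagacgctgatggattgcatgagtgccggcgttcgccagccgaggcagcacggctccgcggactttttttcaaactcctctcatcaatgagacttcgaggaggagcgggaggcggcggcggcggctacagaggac
The consensus GACCACCCA was sought on both strands in the windows of the 7 members in the RefSeq table (Gas1, Cdon, Ptch1, Hhip, Smo, Gli2 and Gli3) and was found in none. It is in 83 of 32851 promoters (0.253%). Its inner part ACCACCC is in 1514 (4.61%), and every match of the longer motif is also a match of the shorter. Shh, Boc and Gli1 were not among the windows used here.

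Gli1, a target that rises with the signal, was nearly undetected. It reached 10 CPM in 8 of 2650 cells: 2 CGE and 3 vMGE cells of E12.5 and 3 dMGE cells of E14.5. On 24 chips it had a mean of 0.264 CPM in dividing and 0.0257 in neuronal cells and was above 0 in dividing cells on 5. By edgeR and limma no difference of Gli1 between regions or ages was called. The level differed between vMGE and dMGE with an unadjusted edgeR p of 0.0138 at E12.5 (vMGE higher, adjusted p = 0.666) and 0.0104 at E14.5 (vMGE lower, adjusted p = 0.490). DESeq2 called the latter (log2 difference -21.9, adjusted p = 0.000682), an estimate that is not usable because all 5 vMGE chips were at 0. The change with age of the difference between vMGE and dMGE was -15.5 on the log2 scale, with an unadjusted p of 0.000714 and an edgeR adjusted p of 0.325. With vMGE at 0 at E14.5 and dMGE at a mean of 0.00309 CPM at E12.5, that estimate and its p are not usable either.

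Within the dividing cells, 4 of 10 members were detected more often where radial glia transcripts were higher, as were 25.5% of all genes. Radial glia are the neural stem cells that line the ventricle. The dividing cells of each of 31 chips were split at the chip's median of a score over 18 radial glia markers, none of them a member. Smo was detected in 7.86% ± 7.69 of low-score and 22.2% ± 13.1 of high-score cells (limma adjusted p = 6.76e-06) and was more frequent in high-score cells on 26 of 31 chips. Gas1 rose from 1.99% ± 3.76 to 5.92% ± 7.18 (limma adjusted p = 0.00399), Gli3 from 20.9% ± 11.2 to 32.9% ± 17.8 (limma adjusted p = 0.00548) and Boc from 1.25% ± 3.36 to 3.77% ± 5.80 (limma adjusted p = 0.0341). In the same fit 0.176% of all genes were called lower, so over genes at large the calls lean to high-score cells. The part of this lean in the members' calls was not tested. The call of Boc was lost without any of 9 chips (adjusted p 0.0527 to 0.0659, highest without CGE E12.5 chip 175), and the others were kept whichever chip was left out. Where at least 2 counts were required, Boc (limma adjusted p = 0.0925) and Gas1 (0.0560) were not called. Boc was not called either at 10 CPM or more (0.0782) or with chips numbered 160 and above alone (0.0555).

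The other members were not called with the score. Ptch1 was at 12.54% ± 9.92 and 14.8% ± 8.64, Cdon at 5.01% ± 5.82 and 4.63% ± 6.90, Gli2 at 3.36% ± 5.02 and 5.92% ± 8.78, and Hhip at 0.983% ± 2.69 and 2.38% ± 5.06. By level edgeR called no member, beside 0.853% of genes called higher. The unadjusted p was under 0.05 for 5 of them, Smo (log2 difference 2.82, adjusted p = 0.157), Boc, Gli1, Gli2 and Gas1, and DESeq2 called 4 (Smo, Boc, Gas1 and Gli2).

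**Figure D5:**
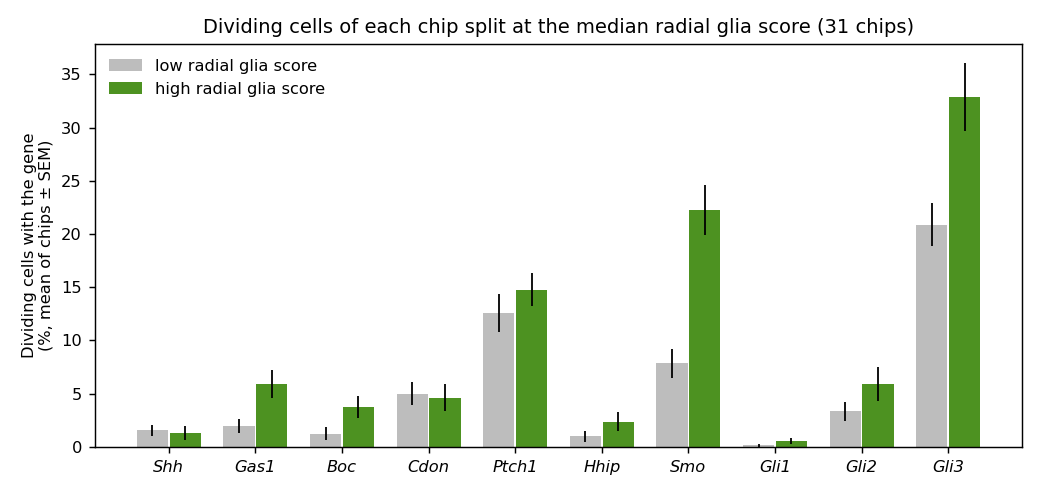
Percent of dividing cells with each member in the low-score (grey) and high-score (green) cells of each chip by radial glia markers, as bars from 0 at the mean of 31 chips with whiskers of 1 SEM. The largest gap is that of Smo, 7.86% against 22.2%, and Cdon is level at 5.01% and 4.63%.

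Most cells carried few of the members at once. Leaving out Shh, 48.8% of the 1286 dividing cells had none of the 9 others at 10 CPM, 35.3% had 1 and 12.4% had 2, and 79.8% of the 694 neuronal cells had none. Dividing cells with Gli2 (57) had other members in these shares, beside those without Gli2: Smo in 26.3% against 12.3%, Gli3 in 38.6% against 26.9%, Gas1 in 10.5% against 3.25% and Boc in 8.77% against 1.79%. Of the 14 dividing cells with Shh, 2 had Ptch1, 2 Cdon and 2 Gli3, and none had Smo, Gli2, Gas1, Boc, Hhip or Gli1. These shares pool cells of several chips and regions and are descriptions only.

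Other genes of the pathway, taken from 4 lists, gave 5 calls between classes, where 6.5% of all genes were called lower and 1.1% higher. Of 9 response genes that could be tested, 3 were lower in neuronal cells: Olig2, a progenitor and glial factor, by a log2 difference of -5.19 (edgeR adjusted p = 0.00154), and the cyclins Ccnd2 (-1.24, 2.87e-08) and Ccnd1 (-2.38, 0.0477). The classes were set by cell cycle markers, so the direction of the cyclins was largely fixed by that rule. The cyclins also enter the list median given next. In the fit with 1 class effect, in which all 10 members could be fitted, the median log2 difference was -2.38 over this list and -3.47 over the members, with -0.57 over all genes. Of 13 genes of reception and the cilium, 1 was called, the ciliary motor subunit Kif3a, which was higher in neuronal cells (0.93, edgeR adjusted p = 0.0162). Of 11 cytoplasmic regulators of Gli proteins 1 was called, the protein kinase A subunit Prkacb, also higher (0.96, 0.0368). None of 5 tested genes for making and releasing ligand was called. The medians of these 3 lists in the same fit were -0.63, 0.31 and -1.18.

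Between regions and ages few of these genes passed. Nkx2-1 was the response gene called between MGE and CGE at each age, with the values given above. From E12.5 to E14.5 in dividing MGE cells Ccnd2 rose by a log2 difference of 1.48 (edgeR adjusted p = 0.000745) while Ccnd1 fell by 1.59 (0.0254). The cilium gene Dync2h1 rose by 1.75 (0.0115) and the kinase gene Gsk3b by 2.29 (0.000519), where 4.84% of all genes were called. Most MGE chips of E14.5 are numbered under 160 and all E12.5 chips 160 or above. Median counts per cell in dMGE and vMGE were 932546 and 911426 at E12.5 and 509250 and 532602 at E14.5. Age and number series can therefore hardly be told apart in any comparison of ages in MGE. By edgeR no member's level was called with age in either region. Shh passed in MGE without vMGE E14.5 chip 91 (adjusted p = 0.0442), and DESeq2 called Gas1 higher at E14.5 in MGE (log2 difference 3.34, adjusted p = 0.0431), a direction that turned with chips numbered 160 and above alone. In CGE edgeR called no gene with age (1027 had an unadjusted p under 0.05, and DESeq2 called 522). In neuronal cells no member was called between regions or ages in level by edgeR or in detection by limma. DESeq2 called Gli2 between MGE and CGE and between vMGE and dMGE at both ages (adjusted p 2.98e-07 to 3.02e-05) and Cdon between MGE and CGE at E14.5 (0.0302). For Gli2 between vMGE and dMGE its log2 differences were -21.7 at E12.5 and -19.1 at E14.5. Between MGE and CGE they were -16.5 and -13.5, and MGE there takes in the vMGE estimate. With neuronal vMGE cells at 0, estimates of that size are not usable, nor are their p-values. Gli2 reached 10 CPM in 0 neuronal dMGE cells at E12.5 and 1 at E14.5. By level edgeR called 0.00774% of genes between MGE and CGE at E14.5, 0.193% with age in MGE and none in the other 4 contrasts (at an unadjusted p under 0.05, 876 to 1297 of 12922). By detection limma called 0.0387% and 0.317% between MGE and CGE at E12.5 and E14.5, 1.23% with age in MGE and none in the other 3. Ccnd2 again rose with age in MGE (2.05, edgeR adjusted p = 0.0407). Whether a member's difference changed with age or region could be tested in 95 of 112 cases, all 56 of detection and 39 of 56 of level, and none of these passed the adjusted threshold. The 39 take in the Gli1 estimate called not usable above. The other 17 could not be fitted.

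The genes most like the abundant members over the 57 samples of a chip and class were sought among 7342 genes (7343 for Cdon) with a mean of 20 CPM or more. By Pearson's r of log2(CPM + 1), Gli3 was closest to Ednrb (0.68), one of the radial glia markers used for the score, Sgo1 (0.67) and Espl1 (0.67), both of chromosome segregation. Smo was closest to Msn (0.68), Rrp1b (0.58) and Wdr76 (0.58), Ptch1 to Galnt1 (0.60), Gna12 (0.58) and Ubqln4 (0.57), and Cdon to Lin54 (0.60), Dtwd1 (0.50) and Gng12 (0.49). The samples share class and depth differences, so these values only describe.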

How the data were processed

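Single-cell RNA libraries (SMART-Seq v4, Nextera, single-end reads without molecular identifiers) were aligned with STAR 2.4.0 to mouse build mm9 and counted with HTSeq 0.6.1, per the submitters' processing notes; whether strand was used is not given in the sources used here. The deposited values are whole-number read counts per gene and cell, made by the authors; their normalized table was not used. Of the 37310 rows 32620 could be named by gene ID. All columns matched a listed cell.

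Cells with at least 1000 genes and 50000 counts were kept (2650 of 2669, with 50067 to 2525162 counts each). Group medians ran from 509250 to 1045950 counts per cell, lowest in MGE at E14.5. The bounds of the classes were set from marker distributions after the data were seen, and the members and gene lists were chosen with earlier results of these data known. All members are named; of other pathway lists, up to 4 called genes with the smallest adjusted p per list and comparison; and for likeness the 3 genes with the highest r for each member with a mean of 5 CPM or more.

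Counts were summed per chip and class (at least 10 cells) and fitted over all genes with edgeR 4.0.16 (TMM scaling, filter on low counts, quasi-likelihood test). Class and radial glia fits kept the chip as a block, and region and age fits used all 6 groups. Detection after thinning to 100000 counts was fitted with limma 3.58.1, and 19 dividing and 10 neuronal cells were too shallow to thin. Adjusted p-values are Benjamini-Hochberg values over all genes. The floor for folds against groups at 0 was 3 counts over the group, which takes reads and not cells as the unit. Intervals and floors cover counting error only. The tests were tested on simulated data. Alternatives were DESeq2 1.42.0, its size factors in edgeR, limma on log2(mean CPM + 1), no filter, stricter cell or class bounds, at least 5 cells per chip, other detection rules, chips numbered 160 and above alone and each chip left out. A fit with 1 class effect and the share at or above 10 CPM were added after seeing the data. Exon lengths are from GENCODE annotation of GRCm38 and promoters from RefSeq, neither being the build of the counts, and both were matched by name or gene ID only.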

Additional observations from a re-analysis of the deposited data

Results flagged for a closer look

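Shares of cells with a member were looked at for chips standing apart from the others of their group (Dixon's test, groups of 4 to 10 chips); chance gives about 1 in 20 groups, and 18 of 83 groups had such a chip. The widest gaps were those of Gli3 on dMGE E14.5 chip 90, with 60% of dividing cells (nearest chip 19.4%) and 60.9% of neuronal cells (nearest 6.25%). Ptch1 was in 19.0% of neuronal cells on CGE E14.5 chip 161 (nearest 5%), and Gas1 in 2.86% of dividing cells on CGE E14.5 chip 160, below the nearest at 8.82%.

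In the other 14 every other chip of the group was at 0%, so that the flag was fixed by the rule and they rest on few cells. Boc was in 2.86% of dividing cells on dMGE E14.5 chip 193, 1.92% on vMGE E12.5 chip 174 and 3.45% on vMGE E14.5 chip 194, and in 3.45% of neuronal cells on CGE E12.5 chip 175 and 5% on CGE E14.5 chip 160. Cdon was in 5.88% of neuronal cells on dMGE E12.5 chip 173 and 4.35% on vMGE E14.5 chip 93. Gli1 was in 2.38% of dividing cells on CGE E12.5 chip 182. Gli2 was in 1.92% of dividing cells on vMGE E12.5 chip 174 and 3.70% of neuronal cells on dMGE E14.5 chip 193. Hhip was in 3.33% of neuronal cells on dMGE E14.5 chip 99. Shh was in 4.76% of dividing and 6.06% of neuronal cells on CGE E12.5 chip 182, and in 3.85% of dividing cells on vMGE E14.5 chip 91.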

How the results depend on the processing

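By level, 1 member was called between classes. The number was 4 with 1 class effect over all groups, 4 by DESeq2, 0 with DESeq2 size factors, 2 with at least 5 cells per chip, 0 with chips numbered 160 and above, 3 by limma on log2(mean CPM + 1), and 0 to 2 with a chip left out. Of 60 pairs of member and contrast in dividing cells 1 was called; DESeq2 called 10, limma 3, and chips numbered 160 and above, no low count filter and the stricter class bounds 0 each, with 0 to 1 when a chip was left out. In neuronal cells 0 were called and DESeq2 called 5, with 0 when a chip was left out. With the radial glia score 0 were called by edgeR, 4 by DESeq2, and 1 each by limma, with the stricter class bounds and with thinned counts, and 0 with a chip left out. By detection, 8 members were called between classes, 3 with chips numbered 160 and above and 6 to 8 with a chip left out. In dividing cells 4 pairs were called, 0 with chips numbered 160 and above and 2 to 6 with a chip left out. In neuronal cells 0 were called, 1 by the share at or above 10 CPM, and 0 with a chip left out. With the radial glia score 4 were called, 2 when at least 2 counts were required and 3 to 4 with a chip left out. Directions turned in 4 cases, none of them called: Gas1 level with age in dividing MGE cells with chips numbered 160 and above (log2 difference -1.84), Boc level between MGE and CGE neuronal cells of E14.5 under the stricter class bounds (3.56) and, from -8.85 to 3.795 with a chip left out, without CGE E14.5 chip 160, and Boc detection with age in dividing MGE cells with chips numbered 160 and above (arcsine difference 0.0554). The cause was not tested. No paired analysis was possible because no label ties a chip of 1 region or age to a chip of another; dMGE and vMGE chips often carry neighbouring numbers, which were not taken as pairs. Classes and radial glia scores were compared within chips. Counts of 1 to 5 members, and shares resting on few cells per chip, limit the precision.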
